A study of Mus musculus with 24 samples.

Results

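The response of adult mouse liver to 30 min of partial ischemia was compared with that of young liver, probe set by probe set. For each probe set the adult change (30 min minus sham, log2) was taken minus the young change, so a positive age difference means that the gene stood higher after 30 min, against sham, in adults than in young mice. The comparison used 12 of the 24 arrays and all 26180 probe sets. Young mice, 4 to 5 weeks old and labelled 1month, and adult mice, 12 to 14 months old and labelled 1year, were each measured on 3 sham-operated arrays and on 3 taken after 30 min of partial hepatic ischemia. The titles write the ischemia groups as 30/0, and the meaning of the second number is not given in the sources used here, nor are strain and sex. RNA came from the median and left lobes. The design text counts 12 mice per age, 3 in each group, and each array is taken here as 1 mouse. The other 12 arrays, after 60 and 90 min, entered only the estimate of the spread and the comparison with later times.

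Closing the vessels of part of the liver stops the supply of oxygen and nutrients to its hepatocytes, and transcription responds within minutes. Immediate early factors of the AP-1 and Egr families are known to rise after such stress without new protein synthesis. Short-lived transcripts that need continued signalling can fall as quickly. Genes of drug metabolism are under the nuclear receptors CAR and PXR, and how long their transcripts last was not measured here.

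Each deposited value is a ratio, with the sham mean of that age set to 1, so young and adult sham liver cannot be compared here, and probe brightness is not kept. Without brightness the tissue could not be checked by the level of its markers. The median ratio of the 12 arrays lay between 0.969 and 1.02, and single ratios ran from 0.0341 to 16.9. The number of arrays, 3 per group, limits the precision. 2 adult arrays stood apart from the others of their group, each on a different measure. Across probe sets, the log2 ratios of adult sham replicate 2 correlated with the young 30 min response at r = 0.38, against -0.10 and -0.21 for the other adult sham arrays. By its correlations with those arrays, -0.26 and -0.57, it did not stand apart, since adult sham replicate 3 had -0.53 and -0.57. Adult 30 min replicate 3 correlated at r = 0.04 and 0.07 with the other adult 30 min arrays, which correlated at 0.81 with each other. The 3 young 30 min arrays correlated at 0.48 to 0.56. Young sham arrays differed among themselves too. Replicate 1 correlated at r = 0.42 with the adult 30 min response, against -0.05 and -0.24 for replicates 2 and 3, and replicate 3 correlated at -0.74 and -0.70 with the others. Scaling to the group's own mean pulls correlations among sham arrays below 0. The adult pair was left out together as an alternative, and no such fit was made for young arrays, which were left out singly.

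No probe set had an age difference at 30 min that passed an adjusted p under 0.05 in limma (0 of 26180, 0%; lowest adjusted p = 1.00). At an unadjusted p under 0.05 there were 539 probe sets, 2.06% of those tested, 324 above 0 and 215 below, where 5% would be 1309. Without young sham replicate 3 that count was 978, and without adult 30 min replicate 3 it was 1514. The count that passed was also 0 in each of the 24 alternatives run, with the lowest adjusted p, 0.138 in limma, for Rassf8 without young 30 min replicate 2. The age difference had a median of -0.01 over all probe sets and a median standard error of 0.17 on the log2 scale. For 96.8% of the probe sets the 95% interval lay wholly between -1 and 1, so a difference of 2-fold or more lay outside it, and for 73.6% it lay within 1.5-fold. The other 831 probe sets had an interval that reached past 1 in either direction, so a 2-fold age difference lay within it. Some of these had wide intervals around a value near 0, and others, such as Gpcpd1, had a large value. A difference that missed the threshold does not show that the ages responded alike.

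The adult and young changes at 30 min ran in the same direction for 68.4% of probe sets, with r = 0.59 across probe sets (0.58 without both arrays), as a description over features that share arrays. Each age's changes had an SD of 0.19 across probe sets. The adult and young 30 min arrays did not overlap in 3662 probe sets (14.0%), with adults higher in 2030 of them. In 496 probe sets every adult 30 min array was above the sham mean and every young one below it, and in 383 the reverse held.

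**Figure D1:**
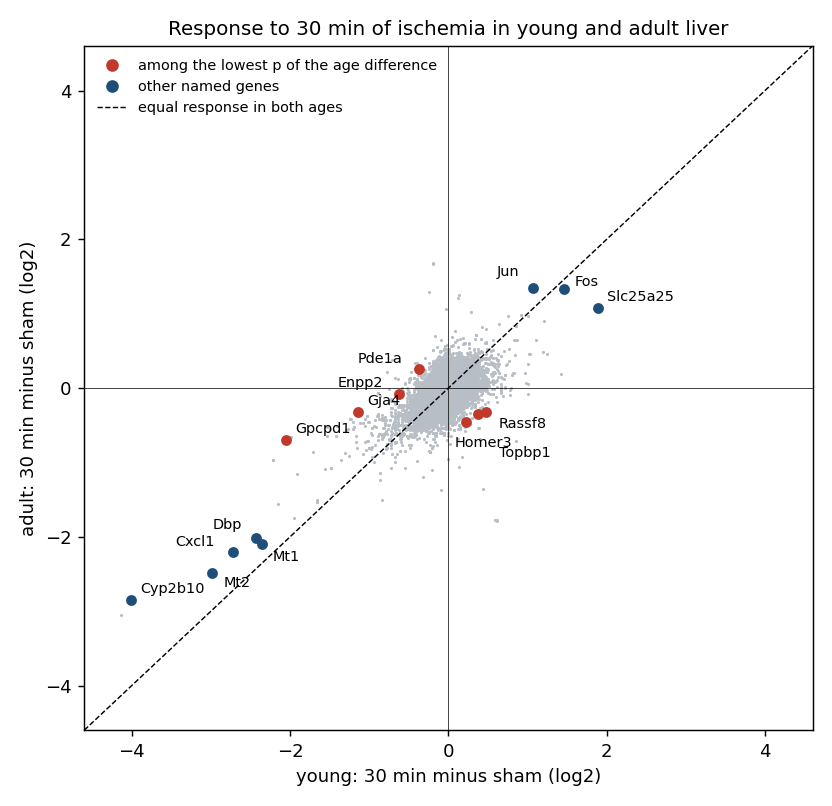
Log2 change from sham to 30 min in young (x axis) and adult liver (y axis), 1 grey point per probe set. Coloured points are named genes, and the dashed line marks equal change. Cyp2b10, at -4.01 in young and -2.85 in adult liver, lies at the far end of the falls, and Gpcpd1 lies well above the line.

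Since the ages did not differ in any call, the mean of both responses was also tested, a choice made after the data were seen. It passed in limma for 177 probe sets (0.676% of 26180), 13 up and 164 down, and the 123 with a symbol stood for 119 genes. All 177 changed in the same direction in both ages, which a test of the mean favours. The falls had a median of -0.52 in adults and -0.66 in young mice, a median age difference of 0.16, and the young change was the larger in 124 of the 177. Over all probe sets the median age difference was -0.01. These values include the 2 adult arrays that stood apart and are not given without them. Within single ages, 8 probe sets passed in young liver (0.0306%), all lower, and 0 in adult liver (lowest adjusted p = 0.354 in limma, with 2701 at an unadjusted p under 0.05). The processing moved the count of 177: it was 10 with the title code as a block, 25 with quantile normalization and 81 in the 12 arrays alone. The code is shared by 3 adult pairs of a sham and a 30 min array, whose deviations from the group means correlated at 0.20, 0.25 and 0.35, and by 2 young pairs, at 0.14 and 0.05. Single arrays moved it as well. Leaving out adult 30 min replicate 3 gave 2166, and leaving out adult sham replicate 2 gave 460. It was 25 and 38 without adult sham replicates 1 and 3, 23 and 45 without adult 30 min replicates 1 and 2, and 26 without young sham replicate 2. Without young 30 min replicates 1, 2 and 3 it was 91, 101 and 50. With adult sham replicate 2 and adult 30 min replicate 3 both left out it was 2528, among them all 177. The adult response alone then gave 1163 calls, 304 up and 859 down. These arrays were chosen for their correlations, the sham one for its likeness to the young response. That choice favours more calls, so the higher counts are no separate support for the 177. In the same fit the age difference still gave 0 calls (lowest adjusted p = 0.612 in limma), with 1974 at an unadjusted p under 0.05.

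Among the 123 probe sets, 15 passed in all 12 fits that left out 1 array. They stand for 14 genes, 1 that rose and 13 that fell, and were picked out after their values were seen. The gene that rose was Slc25a25, which encodes a mitochondrial transporter that exchanges adenine nucleotides for phosphate. Its ratios were 3.42, 2.93 and 4.13 in young liver after 30 min, against 0.775, 1.55 and 0.677 in young sham. In adults they were 2.41, 1.23 and 2.84 after 30 min, against 0.740, 1.32 and 0.941 in sham. All 3 young 30 min arrays lay above all 3 adult ones, and in adults replicate 2 overlapped sham. The mean change was 1.48 ± 0.25 (SE; adjusted p = 0.0108 in limma), and the age difference was -0.82 ± 0.49 with a 95% interval from -1.85 to 0.21.

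Cyp2b10, a cytochrome P450 induced through CAR, had the lowest ratios among the 14. They were 0.0554, 0.0929 and 0.0439 in young liver after 30 min, against 1.18, 1.09 and 0.726 in young sham. In adults they were 0.128, 0.217 and 0.0422 after 30 min, against 1.75, 0.250 and 1.00 in sham. Adult sham replicate 2 sat close to the adult 30 min arrays, and the 30 min arrays of both ages overlapped. The mean change was -3.43 ± 0.51 (adjusted p = 0.00528 in limma), and the age difference of 1.16 ± 1.03 had an interval from -0.98 to 3.29. Por, the flavoprotein that passes electrons to the P450 enzymes, fell by 0.81 in adults and by 1.15 in young liver, with a mean adjusted p of 0.0114 in limma. The other 11 genes fell by amounts from 0.40 to 2.46 in the mean of both ages. Besides Cxcl1, Gpcpd1, Gja4, Fosl2, Rabgef1 and Atg14, described next, they were Sh3bp2, a signalling adaptor, Acer2, a Golgi ceramidase, Atl2, an atlastin that shapes the endoplasmic reticulum, Grtp1 and Lurap1l. Another Atl2 probe set also passed but was kept in 7 of the 12 fits (highest adjusted p = 0.0836 in limma).

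Hepatocyte transcription factors were also among the 119 genes. Hnf4a, which maintains hepatocyte identity, fell by 0.50 in adults and by 0.44 in young mice, and Foxa3, another hepatocyte factor, fell by 1.00 and by 0.68. Their mean responses passed (adjusted p = 0.0486 and 0.0492 in limma) but were kept in only 3 and 2 of the 12 fits with 1 array left out. Nr1i2, which encodes the nuclear receptor PXR, fell by 0.55 in adults and by 0.65 in young liver and was kept in 8 of 12. The cytokine receptors Il1r1 (-0.97 in adults, -1.35 in young mice) and Osmr (-0.36 and -0.61) fell as well, kept in 7 and 6 of 12. The age differences of these 5 genes lay between -0.32 and 0.39, none larger than its standard error by more than 1.5 times.

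Among probe sets with 1 symbol, the 12 with the lowest p above 0 and the 12 below 0 are named next by a fixed rule. The 10952 probe sets with no symbol were left out of this choice. None passed, with an adjusted p of 1.00 in limma for each. Those above 0 stood for 9 genes, and in all 9 the young ratios after 30 min were the lower ones. Gpcpd1, a glycerophosphocholine phosphodiesterase of choline metabolism, had the largest of these differences. Its ratios in young liver after 30 min were 0.175, 0.359 and 0.222, against 0.969, 1.03 and 1.00 in sham. Those in adult liver were 0.589, 0.652 and 0.577, against 0.883, 0.836 and 1.28 in sham. The 30 min arrays lay below the sham arrays in both ages, and all young ones lay below all adult ones. In young liver it fell by 2.05 ± 0.25 (adjusted p = 0.00208 in limma), and the adult change of -0.70 ± 0.25 did not pass (0.448). The age difference was 1.36 ± 0.36 (95% interval 0.61 to 2.11), and 1.28 without both adult arrays. The other Gpcpd1 probe set gave 1.32 ± 0.39.

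Gja4, a gap junction connexin of arterial endothelium, had young ratios of 0.486, 0.477 and 0.386 after 30 min, against 0.787, 1.22 and 0.990 in sham. The adult ratios were 0.743, 0.756 and 0.910, against 1.07, 0.941 and 0.989 in sham. The young arrays were the lower ones, and in each age the 30 min arrays lay below those of its own sham group. In young liver it fell by 1.14 ± 0.16 (adjusted p = 0.00425 in limma; 0.0597 without young 30 min replicate 3), and the age difference was 0.82 ± 0.23 (interval 0.33 to 1.30). Enpp2, or autotaxin, which makes lysophosphatidic acid, was at 0.627, 0.669 and 0.651 in young liver after 30 min, against 0.963, 1.04 and 0.992 in sham. The adult ratios of 0.928, 0.787 and 1.16 overlapped those of adult sham, 1.04, 0.984 and 0.973. In young liver it fell by 0.62 ± 0.10 (adjusted p = 0.0117 in limma), a call that was lost without any 1 of 5 of the 6 young arrays, young sham replicate 1 being the exception. The age difference was 0.55 ± 0.14 (interval 0.26 to 0.84), and 0.39 without both adult arrays.

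3 other genes passed in young liver. Rabgef1, an exchange factor for endosomal Rab proteins, fell by 0.72, the AP-1 member Fosl2 by 0.63 and Atg14, a subunit of the autophagy lipid kinase, by 0.97. Their adult changes were -0.36, -0.38 and -0.53, and their age differences were 0.36 ± 0.15, 0.25 ± 0.13 and 0.44 ± 0.23. Rabgef1 and Fosl2 lost the young call without young 30 min replicate 3 (adjusted p = 0.0597 and 0.0573 in limma). Atg14 lost it when young 30 min replicate 1 or 2 or young sham replicate 3 was left out (highest adjusted p = 0.199). The count of 8 young calls was 3 without young 30 min replicate 3, 15 without young sham replicate 1 and 25 without adult sham replicate 2.

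In the other 6 genes of the upper group the adult change was positive and the young one negative, and no single age passed. Pde1a, a calmodulin-dependent cyclic nucleotide phosphodiesterase, was at 1.05, 1.10 and 1.48 in adult liver and at 0.805, 0.716 and 0.800 in young liver after 30 min. Its highest adult value was that of replicate 3. Its age difference was 0.63 ± 0.16, and 0.50 without both adult arrays. The 3 Pde1a probe sets had nearly the same ratios and are not independent. Nkg7, a granule protein of cytotoxic T and NK cells, was at 1.37, 1.12 and 1.39 in adult liver and at 0.891, 0.912 and 0.805 in young liver. Its age difference was 0.57 ± 0.15, and the 3 young arrays overlapped young sham. Ogn, a small matrix proteoglycan, differed by 0.75 ± 0.21, Rasd1, a dexamethasone-induced Ras-like protein, by 0.56 ± 0.14, Prr5, a subunit of mTOR complex II, by 0.58 ± 0.17 and Gpsm1, a modulator of G protein signalling, by 0.39 ± 0.12. The adult and young 30 min arrays did not overlap in any of the 9 genes, which their choice by p nearly fixes (adults were higher without overlap in 7.85% of all genes).

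**Figure D2:**
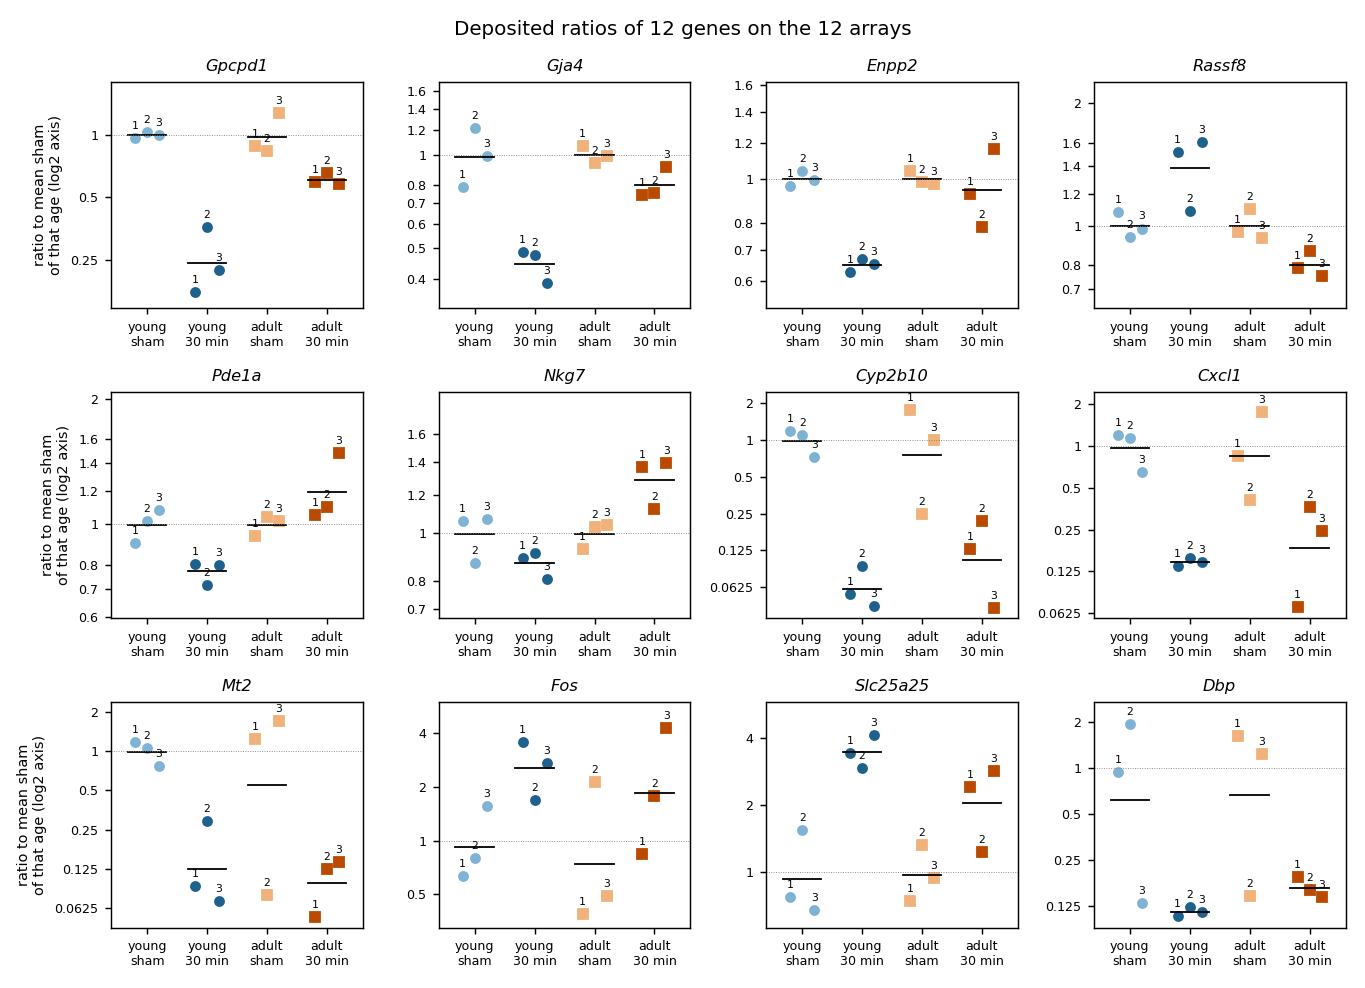
Deposited ratio of 12 genes on each of the 12 arrays (y axis, log2 scale, different range in each panel) by group, with the replicate number over each point and the geometric mean as a line. For Gpcpd1, Gja4 and Enpp2 the young 30 min arrays lie lowest, and for Mt2 and Dbp adult sham replicate 2 lies with the 30 min arrays.

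On the other side, 12 genes had the lowest p below 0, with all adult ratios after 30 min under 1 and the young ratios mostly over it. Rassf8, a protein with a Ras association domain, had the lowest p of all probe sets with a symbol. Its ratios in young liver after 30 min were 1.52, 1.09 and 1.61, against 1.08, 0.937 and 0.985 in sham. Those in adult liver were 0.788, 0.866 and 0.753, against 0.967, 1.10 and 0.934 in sham. In each age the 30 min arrays lay to 1 side of their sham arrays, opposite in the ages. The age difference was -0.79 ± 0.18 (95% interval -1.17 to -0.42; -0.68 without both adult arrays). Neither the adult change of -0.32 nor the young change of 0.48 passed alone.

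Homer3, a scaffold of the Homer family, was at 0.846, 0.810 and 0.568 in adult liver and at 1.17, 1.05 and 1.28 in young liver, an age difference of -0.67 ± 0.17. Its lowest value was adult replicate 3, and without both arrays the difference was -0.47. Topbp1, which activates the replication checkpoint kinase ATR, was at 0.727, 0.662 and 0.981 in adults and at 1.51, 1.35 and 1.05 in young mice, a difference of -0.72 ± 0.21. Here adult replicate 3 was nearest to 1, and the difference without both arrays was -0.93. Fpr1, the formyl peptide receptor of phagocytes, was at 0.661, 0.653 and 0.667 in adult liver, yet its adult sham arrays spread from 0.778 to 1.39. Its age difference was -0.66 ± 0.22.

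The other 8 genes differed by -0.38 to -0.64. Me2, the mitochondrial malic enzyme, had an age difference of -0.41 ± 0.11, Ints13, of the Integrator complex, one of -0.39 ± 0.11, and Traf5, an adaptor of tumour necrosis factor receptors, one of -0.42 ± 0.13. Crlf3 was at -0.40 ± 0.12, Mblac1 at -0.64 ± 0.20, the polarity protein gene Patj at -0.38 ± 0.12 in 1 of its 3 probe sets (0.00 and -0.01 in the others), Pwp2, of small ribosomal subunit processing, at -0.40 ± 0.14, and Vps45, of endosomal transport, at -0.48 ± 0.17. The 30 min arrays of the ages did not overlap in any of the 12, which again follows largely from the choice (adults were lower without overlap in 5.79% of all genes).

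**Figure D3:**
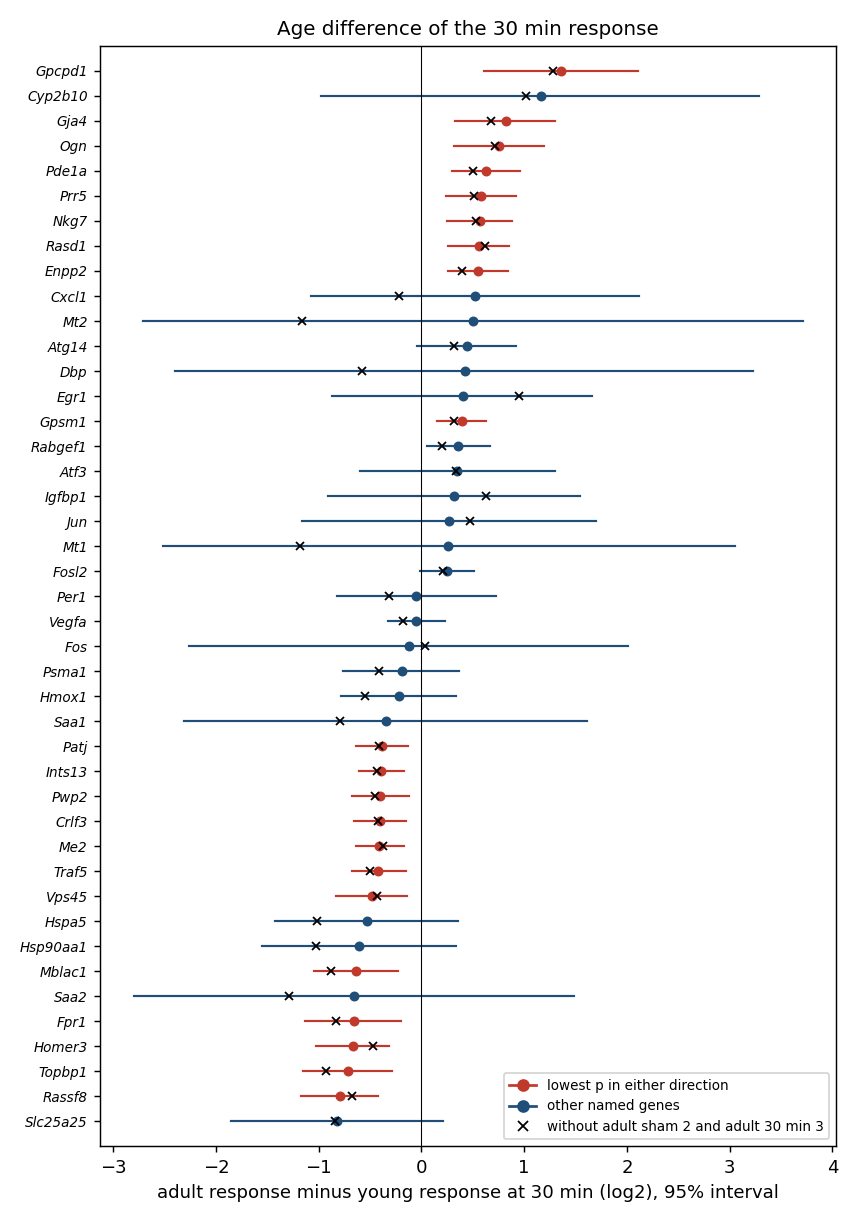
Age difference of the 30 min response (x axis, log2; points) with its 95% interval for each named gene, and its value without adult sham replicate 2 and adult 30 min replicate 3 (crosses). The genes of lowest p (red) have short intervals away from 0 before any adjustment, whereas Cyp2b10, Mt1, Mt2, Dbp and Fos (blue) have intervals more than 4 log2 units wide.

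Several genes with large changes had age differences that these arrays could hardly locate. Mt1 and Mt2 encode metallothioneins, which bind zinc and are induced by zinc and glucocorticoids through the factor MTF-1 and the glucocorticoid receptor. Mt2 was at 0.0922, 0.293 and 0.0715 in young liver after 30 min, against 1.17, 1.06 and 0.763 in sham. In adults it was at 0.0532, 0.125 and 0.142 after 30 min, against 1.23, 0.0789 and 1.69 in sham. Adult sham replicate 2 was as low as the ischemic arrays, and the other sham arrays of either age were above all 30 min arrays. The age difference of 0.50 ± 1.54 (interval -2.71 to 3.71) turned to -1.16 without both arrays and to -0.90 without adult sham replicate 2 alone. Mt1 was at 0.161, 0.400 and 0.108 in young and at 0.0807, 0.183 and 0.237 in adult liver after 30 min, and its adult sham replicate 2 was at 0.137. Its age difference of 0.26 ± 1.34 turned to -1.18 without both. The mean changes of -2.23 for Mt1 and -2.73 for Mt2 did not pass (adjusted p = 0.111 and 0.0929 in limma). They did without both arrays (0.0121 and 0.00869 in limma). That fit left out the adult sham array that was low for both genes, which favours a pass.

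Cxcl1, a chemokine that attracts neutrophils, was at 0.137, 0.157 and 0.146 in young liver after 30 min, against 1.21, 1.14 and 0.647 in sham. In adults it was at 0.0692, 0.365 and 0.245 after 30 min, against 0.849, 0.406 and 1.75 in sham. The adult arrays spread on both sides of the narrow young group, and in each age the ischemic arrays lay below sham. The mean fall of 2.46 ± 0.38 passed (adjusted p = 0.00750 in limma), and the age difference of 0.52 ± 0.77 was -0.22 without both arrays and -0.01 without adult sham replicate 2.

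The promoters of these 3 genes are shown because the ratios of these genes were low after 30 min in both ages. They run from 250 bases before to 50 after the start, in RefSeq's annotation of GRCm38.p6, all on the plus strand. Capitals in Mt1 (chr8:94178839-94179138) and Mt2 (chr8:94172368-94172667) mark the core of the metal response element, TGCACNC or TGCGCNC on either strand, and in Cxcl1 (chr5:90890995-90891294) an NF-kB motif on either strand (GGG, any 2 bases, TT, any base, CC).
Mt1: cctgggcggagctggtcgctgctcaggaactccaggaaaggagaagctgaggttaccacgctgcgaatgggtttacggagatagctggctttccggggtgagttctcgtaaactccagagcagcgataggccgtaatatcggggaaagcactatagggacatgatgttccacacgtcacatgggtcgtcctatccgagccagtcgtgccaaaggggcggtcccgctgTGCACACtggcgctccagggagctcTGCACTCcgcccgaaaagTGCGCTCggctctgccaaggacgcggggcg
Mt2: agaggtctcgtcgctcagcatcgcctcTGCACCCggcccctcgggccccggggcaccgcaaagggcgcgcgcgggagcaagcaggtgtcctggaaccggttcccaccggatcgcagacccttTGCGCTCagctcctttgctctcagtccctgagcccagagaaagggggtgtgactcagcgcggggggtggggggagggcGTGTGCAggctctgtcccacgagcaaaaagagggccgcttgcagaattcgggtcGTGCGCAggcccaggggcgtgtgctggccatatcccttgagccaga
Cxcl1: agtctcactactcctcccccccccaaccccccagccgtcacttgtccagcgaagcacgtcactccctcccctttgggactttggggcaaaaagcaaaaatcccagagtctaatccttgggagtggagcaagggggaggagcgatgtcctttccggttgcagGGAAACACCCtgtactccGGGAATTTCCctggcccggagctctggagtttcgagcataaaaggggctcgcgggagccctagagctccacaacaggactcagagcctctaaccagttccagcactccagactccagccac
The metal response core was found 3 times in Mt1, 4 times in Mt2 and 0 times in Cxcl1, and 25.7% of 32851 promoters of this length hold it. The NF-kB motif was found 2 times in Cxcl1 and 0 times in Mt1 and Mt2, and 4.79% of the promoters hold it. The motif TGANTCA of AP-1 was found 1 time, in Mt2, and 7.81% hold it. These are matches of letters and no measure of binding.

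Clock and immediate early genes varied among the sham arrays too. Dbp, a clock output factor, was at 0.108, 0.123 and 0.114 in young and at 0.194, 0.160 and 0.143 in adult liver after 30 min, with all young arrays below all adult ones. Young sham replicate 3, at 0.130, and adult sham replicate 2, at 0.146, were as low. Its age difference of 0.42 ± 1.35 was -0.58 without both adult arrays. Fos was at 3.60, 1.68 and 2.72 in young and at 0.840, 1.79 and 4.29 in adult liver after 30 min, and adult sham replicate 2 was at 2.12. Jun was at 2.56, 2.28 and 1.37 in young and at 1.81, 1.51 and 3.57 in adult liver, with adult sham replicate 2 at 1.86. The adult spread covered the young one for Fos. For Jun the ages overlapped, with young replicate 3, at 1.37, below all adult arrays. The age differences of Fos and Jun were -0.12 ± 1.02 and 0.27 ± 0.69. Neither mean change passed (1.39 and 1.21, with adjusted p = 0.190 and 0.0963 in limma), and of the pair that of Jun did without both arrays (0.0176 in limma). That fit left out the highest adult sham array for Jun, at 1.86, which favours a rise. It also left out the highest adult 30 min array, at 3.57.

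Gene lists are described by their members' counts, beside the same over all 14351 genes (1 probe set each), whose median age difference was 0.00 with 49.3% above 0 and 50.7% below. Of all 14351 genes, 8124 young and 8185 adult changes were below 0, and 6166 adult changes were above it. The lists held 867 distinct measured genes, and 0 of them passed, in any of the 43 lists. At an unadjusted p under 0.05, 1.25% of all genes lay above 0 and 0.864% below.

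Of the 32 AP-1 and immediate early genes, 23 were above 0, with a median age difference of 0.22 (0.14 in adults, -0.04 in young mice; 0.16 without both arrays). The age difference, which counts the sham arrays too, had 0 of the 32 at an unadjusted p under 0.05 in limma. By the 30 min ratios alone, adult arrays lay above all young ones in 12 of the 32, against 7.85% of all genes. They lay below in 1, against 5.79%. These 12 included Junb, an AP-1 subunit, with a difference of 0.95 ± 0.55, the nuclear receptor Nr4a1 with 0.48 ± 0.29 and the zinc finger factor Klf2 with 0.40 ± 0.28. Junb was at 0.400, 0.294 and 0.373 in young and at 0.434, 0.681 and 0.862 in adult liver. Every 30 min array was below 1, and the young ones were the lower, but the mean response did not pass (adjusted p = 0.0755 in limma). Gadd45g, a growth arrest gene, had the opposite sign at -1.23 ± 1.02, with young ratios of 2.35, 2.58 and 3.19 and adult ratios of 0.800, 0.917 and 1.90. The mean response rose for 1 of the 32, Ccn1, and fell for 4, Fosl2, Gadd45a, Gadd45b and Klf10, against 0.0488% and 0.766% of all genes. With 1 array left out, the calls of Fosl2 and Gadd45a were kept in 12 and 11 of 12 fits, that of Ccn1 in 4, and those of Gadd45b and Klf10 in 3 each.

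Among 21 targets of CAR and PXR, 17 had an age difference above 0, with a median of 0.17 that was 0.03 without both adult arrays. All 21 young changes and 19 adult changes were below 0, with list medians of -0.34 and -0.32. The mean response fell for 5, against 0.766% of all genes, namely Cyp2b10, Por, Nr1i2, the carboxylesterase gene Ces2a and Gadd45b. With 1 array left out, the calls of Cyp2b10 and Por were kept in all 12 fits, that of Nr1i2 in 8, and those of Ces2a and Gadd45b in 3 each. Nr1i3, which encodes CAR itself, was at 1.14, 0.914 and 1.13 in adults and at 0.876, 0.784 and 0.826 in young liver after 30 min. Its arrays did not overlap between the ages, and its difference was 0.36 ± 0.16. The 39 cytochrome P450 genes had a median of 0.11, with 28 above 0 (0.05 and 22 without both). An exception was Cyp39a1, a bile acid hydroxylase, with adult ratios of 0.398, 0.632 and 0.304 and young ratios of 0.760, 1.07 and 0.624, a difference of -0.88 ± 0.38.

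Protein-folding genes leaned the other way. Of 21 genes of endoplasmic reticulum stress, 19 were below 0 and 2 above, with a median of -0.19 (-0.49 without both arrays). Hspa5, the main chaperone of that compartment, differed by -0.53 ± 0.43, with adult ratios of 0.523, 0.606 and 1.16 and young ratios of 0.750, 1.15 and 1.10. Adult replicate 3 lay apart from the other adult arrays, and the ages overlapped. Of 23 cytosolic heat shock genes 20 were below 0, with a median of -0.20 (-0.35 without both), among them Hsp90aa1 at -0.61 ± 0.45 and Hsph1 at -0.56 ± 0.52. The sham arrays of young mice spread widely for these genes, Hsp90aa1 being at 0.525, 0.669 and 1.81. Leaving out young sham replicate 1 gave list medians of -0.07 for endoplasmic reticulum stress and -0.11 for heat shock genes. The 41 proteasome genes had a median of -0.08 (-0.27 without both), with 29 below 0.

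Hypoxia targets had a median age difference of 0.00 over 25 genes, 13 above 0 and 12 below. Without both adult arrays it was -0.11, with 19 below and 6 above. Vegfa, the endothelial growth factor, was at 0.929, 0.883 and 1.12 in adult and at 0.933, 1.02 and 1.07 in young liver, a difference of -0.05 ± 0.13 with an interval from -0.33 to 0.23 (-0.18 without both). Ddit4, which restrains mTOR complex I, was at 1.25, 2.78 and 1.51 in young and at 0.390, 0.262 and 1.10 in adult liver, with no overlap between the ages. Its adult sham arrays were at 1.85, 0.315 and 0.835, and its difference of -1.55 ± 0.85 was -2.81 without both arrays. Kdm3a, a histone demethylase, was the list member whose mean fall passed, at -0.54 in adults and -0.67 in young mice, a call kept in 4 of 12 fits with 1 array left out.

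Of 32 cell cycle genes, 27 were below 0, with a median of -0.19. The young list median was 0.50 in replicate 1, against 0.08 and 0.12 in replicates 2 and 3, and the median age difference without that replicate was -0.05. Cdc20, an activator of the anaphase-promoting complex, was at 4.43, 1.33 and 1.10 in young liver and at 1.34, 1.23 and 0.917 in adult liver. The replication helicase gene Mcm5 was at 3.13, 1.12 and 1.21 in young liver and at 1.09, 1.10 and 1.27 in adult liver. Both thus stood high in the same young array.

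In the list of vascular tone and gap junction genes, 20 of 28 were above 0 (median 0.14; 0.10 without both). Besides Gja4, Gja1, the widespread connexin, was at 0.503, 0.473 and 0.344 in young and at 0.425, 0.655 and 1.06 in adult liver, a difference of 0.64 ± 0.37 that was 0.13 without both arrays. Its mean fall passed, though in 4 of 12 fits with 1 array left out. The endothelin receptor gene Ednrb differed by 0.31 ± 0.14 and the anticoagulant receptor gene Thbd by 0.54 ± 0.37. In the list of phospholipid genes that holds Enpp2 and Gpcpd1, 9 of 17 were above 0 with a median of 0.02. Chka, the choline kinase at the head of phosphatidylcholine synthesis, lay on the other side, at 1.42, 1.54 and 1.68 in young and at 1.10, 1.15 and 1.01 in adult liver (-0.55 ± 0.28). Lpin1, a phosphatidate phosphatase from the list of fatty acid synthesis, was at 0.410, 0.224 and 0.105 in young and 0.525, 0.370 and 0.429 in adult liver (1.24 ± 0.80).

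The metabolic lists had medians near 0 that moved without both adult arrays. Of 45 oxidative phosphorylation genes, 44 young and 45 adult changes were below 0, with list medians of -0.21 and -0.12 and a median age difference of 0.07 (0.00 without both). The list medians of single arrays overlapped. Young ones were -0.22, -0.03 and -0.39 after 30 min and -0.18, -0.03 and 0.17 in sham. Adult ones were -0.27, -0.19 and 0.07 after 30 min and 0.00, 0.09 and -0.10 in sham. Urea cycle and amino acid genes had a median age difference of 0.04 (17 of 26 above 0), which turned to -0.12 (19 below). Bile acid genes were at 0.05 (13 of 25 above 0) and turned to -0.05 (15 below). Fatty acid oxidation genes were at 0.00 (15 of 30 above 0) and then at -0.07 (19 below), and sterol synthesis genes at -0.07 and then -0.16, with 16 of 22 below 0 each time. Ppara, the fatty acid sensor that drives oxidation genes, was at 1.29, 1.30 and 1.34 in young and at 0.894, 0.597 and 0.989 in adult liver. The young arrays were close together and above all adult ones (-0.67 ± 0.31; -0.98 without both). Acute phase genes were at 0.01 (12 of 23 above 0), with 23 adult and 21 young changes below 0. The list medians of their 30 min and sham arrays overlapped in both ages. Without both adult arrays the median age difference of acute phase genes was -0.23, with 21 of 23 below 0.

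**Figure D4:**
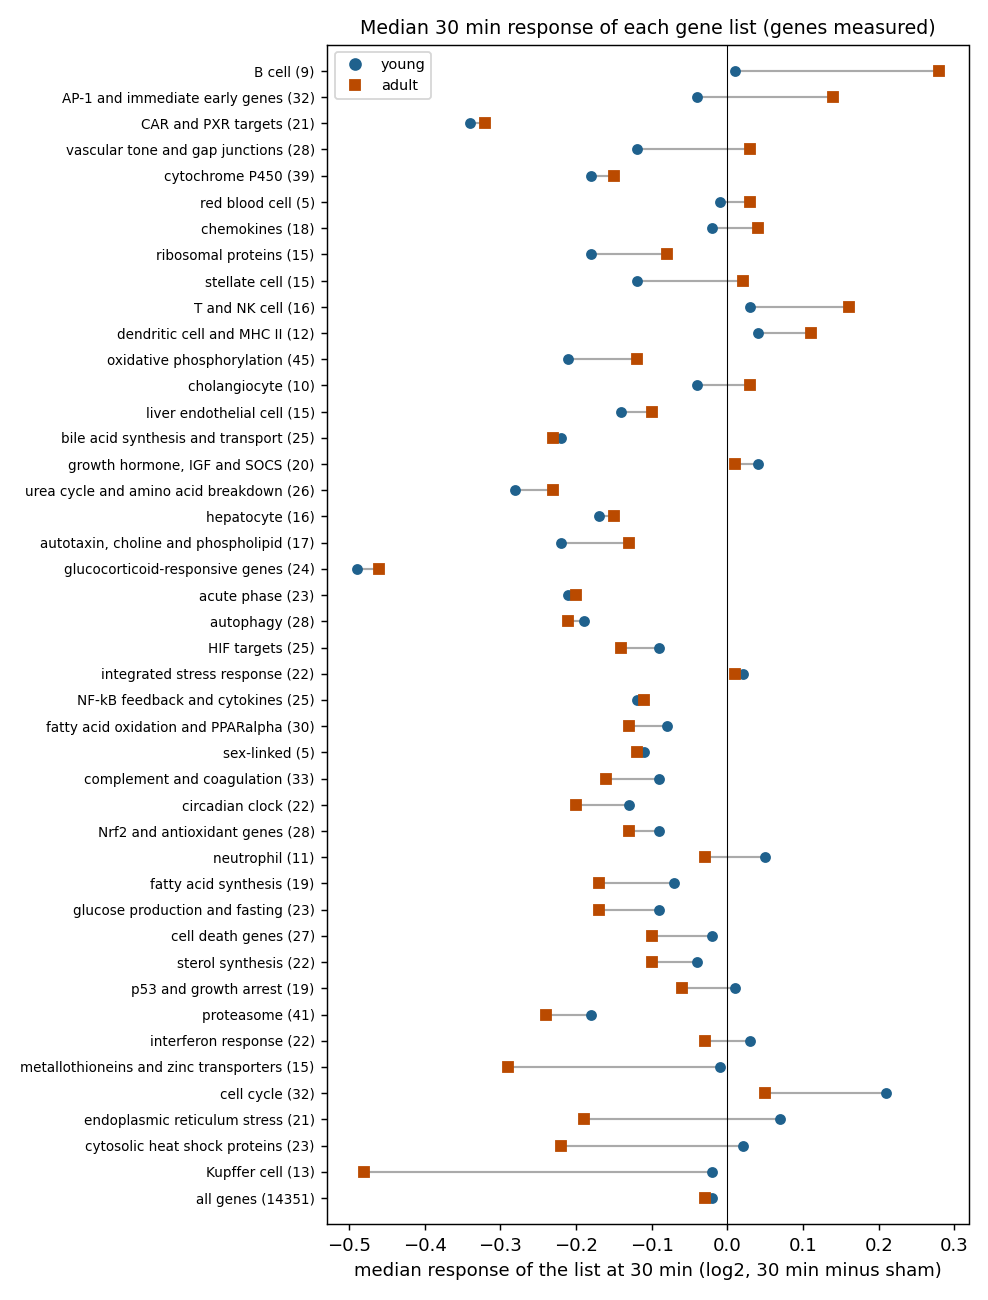
Median log2 change from sham to 30 min of each gene list in young (circles) and adult liver (squares), sorted by the median age difference, with the number of measured genes in brackets. The Kupffer cell list shows the widest gap, at -0.48 in adult and -0.02 in young liver, and the list of all genes stands at the foot.

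Markers of liver cell types were examined in the same way. All 13 Kupffer cell markers, genes of the resident macrophages, had an age difference below 0, against 50.7% of all genes, with a median of -0.39. Without both arrays all 13 were again below 0, against 54.2% of all genes, with a median of -0.61. By the 30 min ratios alone, adult arrays lay below all young ones in 5 of 13, against 5.79% of all genes. The age difference, which counts the sham arrays too, had 0 of 13 at an unadjusted p under 0.05 in limma. The list median of the adult arrays after 30 min was -0.79, -0.62 and -0.28, and that of adult sham was -0.24, -0.31 and 0.36. Adult sham replicate 3 was thus the high one, and without it the median age difference was -0.15. Marco, a scavenger receptor, showed this most: adult sham was at 0.247, 0.231 and 2.52, adult 30 min at 0.208, 0.199 and 0.513, and young 30 min at 1.31, 0.991 and 1.00. Adgre1, a surface receptor of macrophages, was less uneven in sham (0.864, 0.916 and 1.22) and was at 0.689, 0.832 and 0.823 in adults and 1.31, 1.18 and 0.915 in young mice after 30 min (-0.51 ± 0.26). Cd163, a haemoglobin scavenger receptor, fell in the mean of both ages, by 0.88 in adults and by 0.71 in young mice, a call kept in 3 of 12 fits with 1 array left out (highest adjusted p = 0.125 in limma). In whole tissue, fewer cells of a type and less RNA per cell cannot be told apart.

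Lymphocyte markers lay above 0. Of 16 T and NK cell markers, 13 had a positive age difference (median 0.09), all 16 adult changes were above 0, and Ccl5 followed Nkg7 with 0.55 ± 0.26. B cell markers had a median of 0.25, with 7 of 9 above 0, led by the plasma cell gene Jchain at 1.53 ± 0.78. Jchain was uneven in adults, at 3.52, 0.695 and 3.38 after 30 min and at 1.90, 0.515 and 0.580 in sham. Stellate cell markers were above 0 in 12 of 15 (median 0.09), with Lum, a matrix proteoglycan, at 0.68 ± 0.29. Hepatocyte markers had a median of 0.03, cholangiocyte markers 0.05, red cell markers 0.11 and neutrophil markers -0.05. Endothelial markers were at 0.05 (11 of 15 above 0) and at -0.07 without both adult arrays (9 below), and dendritic cell markers at 0.09 (10 of 12 above 0) and then 0.07 (6 above). The part that a different make-up of the samples has in the gene results above was not tested.

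The age difference at 30 min was also set against the mean of those at 60 and 90 min, in which the sham arrays cancel. It passed in limma for 0 probe sets (0%), with 1094 (4.18%) at an unadjusted p under 0.05. The age differences at 60 and 90 min also passed for 0 (0%), with 1821 (6.96%) and 2949 (11.3%) at an unadjusted p under 0.05. They use the same sham arrays as that at 30 min and are given only side by side. Gpcpd1 differed by 1.36, 1.10 and 0.86 at 30, 60 and 90 min. Gja4 was at 0.82, 0.45 and 0.31, Ogn at 0.75, 0.78 and 0.88, and Rassf8 at -0.79, -0.36 and -0.47. Topbp1 was at -0.72, -0.71 and -0.98, and Pde1a at 0.63, -0.01 and 0.55. Against the later mean, the 30 min value was higher by 0.44 ± 0.20 for Gja4, by 0.38 ± 0.31 for Gpcpd1, by 0.36 ± 0.14 for Pde1a and by 0.12 ± 0.18 for Topbp1. For Rassf8 the difference was -0.38 ± 0.16 and for Ogn -0.07 ± 0.18. None of the 6 passed (adjusted p from 0.844 to 0.954 in limma). The Kupffer cell list was at -0.39, -0.01 and -0.70 at the 3 times, and endoplasmic reticulum stress genes were at -0.19, -0.48 and -0.44.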

How the data were processed

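RNA of 24 livers was hybridised to Affymetrix expression arrays. RMA, with no version stated, was used per the submitters' processing notes. The authors deposited linear ratios, and in the value table the mean of the 3 sham arrays of an age is 1 for every probe set, within 2.00e-07. Groups were taken from the sample titles, and 0 value columns belong to other samples. RefSeq accessions were matched to the supplied RefSeq table: 15228 probe sets had 1 symbol and 10952 none. For the 661 genes with several probe sets, lists used the 1 chosen by accession type and lowest number.

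Log2 of the deposited ratios was fitted in limma 3.58.1 (R 4.3.3; lmFit, eBayes, default prior) with 8 group means over 24 arrays, 16 residual degrees of freedom and 4.65 prior degrees of freedom. Tests were two-sided, with Benjamini-Hochberg adjustment over all 26180 probe sets and a threshold of 0.05. Errors are standard errors from this fit, with 3 arrays per group. If arrays did not come from separate mice, p-values measure technical spread only. No filter on brightness could be used, as the ratios do not keep it. The scripts were tested on simulated data.

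Genes were named by rule, among probe sets with 1 symbol: the 12 probe sets of lowest p in each direction where too few pass, up to 4 members of largest age difference per list, those passing in either age, and a short set of ischemia genes. Other genes were chosen after their values were seen. The comparison, the 43 lists and the named genes were chosen with earlier results of these data known. Alternatives were the 12 arrays alone, quantile normalization, median centring, a fixed or a random block by the code in the titles (its first part), array weights, the linear ratio, log2(ratio + 1), 1 probe set or the mean per gene, a robust prior and each of the 12 arrays left out. Leaving out both adult arrays that stood apart and testing the mean of both ages were added after the data were seen.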

Additional observations from a re-analysis of the deposited data

How the results depend on the processing

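With 3 arrays a group, the precision is limited by their number. The age difference passed for 0 probe sets in limma in all 24 alternatives. At an unadjusted p under 0.05 it had 335 with quantile normalization, 3156 with array weights, 302 with 1 probe set per gene, 293 with probe sets averaged per gene and 1974 without both adult arrays, and from 472 to 1514 with 1 array left out. The weights ran from 0.274 for adult 30 min replicate 3 to 4.08 for replicate 2. Adult calls were 3375 with array weights, 1163 without both arrays and from 0 to 148 with 1 array left out. Young calls were 4 in the 12 arrays alone, 330 with array weights, 33 without both arrays and from 3 to 25 with 1 array left out. Calls of the mean response were 81 in the 12 arrays alone, 25 with quantile normalization, 117 with median centring, 3580 with array weights, 2528 without both arrays and from 23 to 2166 with 1 array left out.

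The first part of the title code is shared by some sham and 30 min arrays. No code occurs in both ages, and young 30 min replicate 1 has no sham array of its code. Young sham replicates 1 and 2 likewise have no 30 min array of their codes. Between such arrays, deviations from the group means correlated at 0.20, 0.25 and 0.35 in adults and at 0.14 and 0.05 in young mice. As a random block, the code had a correlation of 0.00242, where 0.1 was set as needed for a block. The main fit used no block. The adult values lay above 0.1, so these numbers do not settle whether the code pairs the arrays. With the code as a replicate block the age difference had 0 calls and the mean response had 10. With the code as a random block the mean response had 177. Between arrays of the same code Cyp2b10 changed by -3.77, -0.20 and -4.57 in adult pairs 1, 2 and 3. The young pairs, which share a sham array, had -2.97 and -4.05. Mt2 changed by -4.53, 0.67 and -3.57 in the adult pairs, and Rassf8 by -0.29, -0.34 and -0.31.

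Of 1146 age differences of the 48 named probe sets followed through the alternatives, 1104 kept their direction and 42 turned, none past the threshold. Without both adult arrays the turned values were -0.22 for Cxcl1, -0.58 for Dbp, 0.03 for Fos, -1.18 for Mt1 and -1.16 for Mt2. Under the block they were -0.63 for Dbp, 0.58 for Fos and -0.14 for Mt1. With quantile normalization they were -0.29 for Dbp, -0.20 for Mt2 and 0.01 for Per1. With array weights they were -0.07 for Igfbp1, 0.04 for Per1 and 0.05 for Saa2. On the linear ratio they were -0.0558 for Mt1 and -0.0456 for Mt2. With 1 array left out the values ran from -0.01 to 1.22 for Cxcl1, -0.68 to 1.54 for Dbp, -0.06 to 0.95 for Egr1, -0.73 to 0.64 for Fos, -0.10 to 0.84 for Jun, -0.86 to 0.91 for Mt1, -0.90 to 1.31 for Mt2, -0.33 to 0.27 for Per1, -1.01 to 0.41 for Saa1, -1.48 to 0.43 for Saa2 and -0.15 to 0.02 for Vegfa, which was at -0.18 without both adult arrays. The cause was not tested. Of 1032 list medians, 966 moved by less than 1 SD and 66 by more.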
